A study of Mus musculus with 22 samples.

Results

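Liver tissue of TG Aire-/- mice was compared with liver tissue of Aire+/+ mice by bulk RNA sequencing. The comparison uses 4 of the 22 samples of the series, 2 TG Aire-/- livers and 2 Aire+/+ livers, which the labels place in a second batch. TG stands for the dnTGFβRII transgene, a dominant-negative type II TGF-β receptor that is driven in T cells, and the study describes these animals as developing an overlap of autoimmune hepatitis and primary biliary cirrhosis. The TG Aire-/- animals carry the transgene and lack both copies of Aire, and the Aire+/+ animals carry neither change, so effects of the transgene and of Aire loss cannot be told apart here. All 4 were C57BL/6 mice labelled as untreated and as 2 to 4 weeks old, and the design text calls the controls littermates. The age of each animal within that range is not given in the sources used here, and its part in the results was not tested. Liver 1 of each group was male and liver 2 female by Xist and the Y-linked gene Ddx3y. A further 2 livers of TG Aire-/- mice depleted of CD8+ T cells entered the statistical fit for the estimate of spread. They also counted toward the filter that set which genes were tested and toward the alternative scalings, and no comparison with them is made here. The 4 livers without a batch number were not analysed here.

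Aire lets medullary thymic epithelial cells display proteins of other tissues, so that T cells reactive to those proteins can be removed. TGF-β restrains activated T cells, and T cells that cannot receive it attack small bile ducts in dnTGFβRII mice. In the lobule of the liver, hepatocytes beside the portal tract and hepatocytes beside the central vein express different enzymes, the second under Wnt signals from the central vein. Hepatocytes also secrete most plasma proteins and exchange fetal for adult programmes after birth.

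The deposited values are RPKM, reads per kilobase of gene scaled to the mapped reads of the library. The 4 libraries summed to between 365247 and 412192 RPKM. The number of genes at 1 RPKM or more was 12020 and 12441 in the TG Aire-/- livers and 10321 and 10356 in the Aire+/+ livers. Albumin alone took 5.92% and 5.19% of the summed RPKM in the TG Aire-/- livers, against 8.93% and 10.5% in the Aire+/+ livers. Of the markers that define liver tissue, Alb had 24388 and 18964 RPKM in the TG Aire-/- livers, against 35829.8 and 39474 RPKM in the Aire+/+ livers, and Ttr, Apoa1 and Serpina1a were abundant in every library. Aire, which liver scarcely expresses, had 0.00471 and 0.301 RPKM in the TG Aire-/- livers and was listed at 0 in both Aire+/+ livers, so it gives no check of the deletion. Tgfbr2 had 12.5 and 23.9 RPKM in TG Aire-/- liver and 3.91 and 5.27 RPKM in Aire+/+ liver, and whether transgene reads are among them was not tested. Cd8a had 8.76 and 3.75 RPKM in TG Aire-/- livers, with 0.161 and 0.220 RPKM in Aire+/+ livers.

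Of 12231 genes tested, 4565 (37.3%) passed an adjusted p of 0.05 in limma, a linear model fitted across all genes on log2(RPKM + 1). More genes were higher than lower in TG Aire-/- liver, 3892 (31.8% of those tested) against 673 (5.50%). The median of all genes was itself 0.53 above 0 on the log2 scale. After median-of-ratios scaling, which centres the typical gene near 0, 1813 genes were higher and 1474 were lower of 12011 tested. Both scalings shared 1812 of the higher and all 673 of the lower genes, and no gene was past the threshold in opposite directions. The number of higher genes thus depends on the scaling, and list medians are to be read beside the shift of 0.53. The counts also depend on single libraries, since 1038 higher and 232 lower genes passed without TG Aire-/- liver 2, 3214 and 689 without TG Aire-/- liver 1, 1367 and 202 without Aire+/+ liver 1, and 1452 and 199 without Aire+/+ liver 2. In 78.3% of the genes tested the 2 groups did not overlap (63.0% with TG Aire-/- liver higher and 15.4% with it lower), so a lack of overlap alone says little of a single gene.

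**Figure D1:**
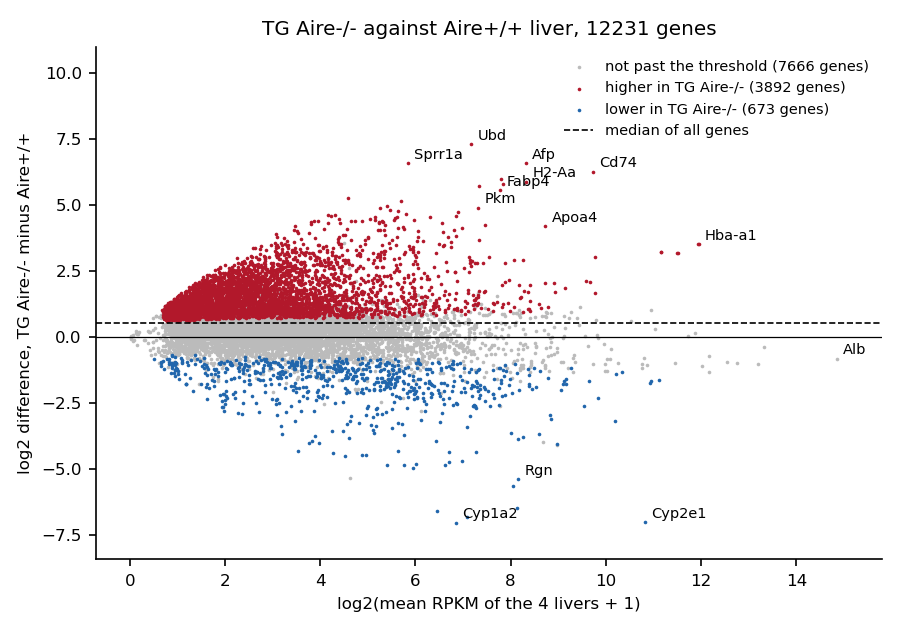
Each point is 1 of the 12231 genes tested, with the log2 of its mean RPKM over the 4 livers plus 1 on the x axis and its log2 difference, TG Aire-/- minus Aire+/+, on the y axis. Red points were higher and blue points lower in TG Aire-/- liver by limma, and the dashed line at 0.53 is the median of all genes. Ubd lies highest at 7.32 and Cyp1a2 lowest at -7.02.

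The 15 largest falls included several enzymes that hepatocytes make. Cyp2e1, which oxidises ethanol and small toxins, had 30.6 and 24.6 RPKM in the TG Aire-/- livers, against 3536 and 3659.9 RPKM in the Aire+/+ livers. Its log2 difference was -6.98 ± 0.44 (SE), adjusted p = 0.00142, and both TG Aire-/- livers lay far below both controls. Akr1c6, a hydroxysteroid dehydrogenase, had 20.2 and 0.885 RPKM in TG Aire-/- liver and 544 and 561 RPKM in Aire+/+ liver, a difference of -6.45 ± 0.98 (SE), adjusted p = 0.00388. Regucalcin (Rgn), a calcium-binding lactonase of hepatocytes, had 21.1 and 7.39 RPKM in TG Aire-/- livers, with 567 and 545 RPKM in Aire+/+ livers, a difference of -5.35 ± 0.47 (SE), adjusted p = 0.00171. The groups were widely apart for both genes, and TG Aire-/- liver 2 held the lowest value of each. Among the other 12 of the 15 largest falls was Sult2a8, a bile acid sulfotransferase, with 5.91 and 1.89 RPKM in the TG Aire-/- livers, against 124 and 121 RPKM in the Aire+/+ livers. Car3, a carbonic anhydrase of hepatocytes, had 18.6 and 3.30 RPKM in TG Aire-/- liver and 192 and 286 RPKM in Aire+/+ liver. Reads of the Sult2a and Cyp2c families may fall on near-identical copies, so single members are uncertain.

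The largest rises came from unlike groups of genes. Sprr1a, which encodes a cornified envelope protein of stratified epithelium, had 88.2 and 138 RPKM in TG Aire-/- livers, with 0.118 and 0.187 RPKM in Aire+/+ livers, a log2 difference of 6.59 ± 0.50 (SE), adjusted p = 0.00142. Both TG Aire-/- livers held it far above 10 RPKM while it was near the limit of detection in both controls. Fabp4, a fatty acid binding protein of capillary endothelium, adipocytes and macrophages, had 257 and 604 RPKM in the TG Aire-/- livers, against 9.39 and 5.63 RPKM in the Aire+/+ livers, a difference of 5.57 ± 0.50 (SE), adjusted p = 0.00178. The groups did not overlap for Fabp4. Thbs1, an extracellular protein that activates latent TGF-β, had 35.7 and 135 RPKM in TG Aire-/- liver and 1.15 and 1.85 RPKM in Aire+/+ liver, a difference of 4.83 ± 0.57 (SE), adjusted p = 0.00217. Outside the 15 largest rises, Apoa4, an apolipoprotein secreted by intestine and, in mice, by fat-laden liver, had 745 and 868 RPKM in TG Aire-/- livers, with 42.8 and 41.1 RPKM in Aire+/+ livers, a difference of 4.23 ± 0.38 (SE), adjusted p = 0.00178. The 2 TG Aire-/- values lay close together for Apoa4 and wide apart for Fabp4 and Thbs1, where TG Aire-/- liver 2 was the higher. In bulk tissue, a change in the number of cells of a type and a change of RNA per cell cannot be told apart.

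**Figure D2:**
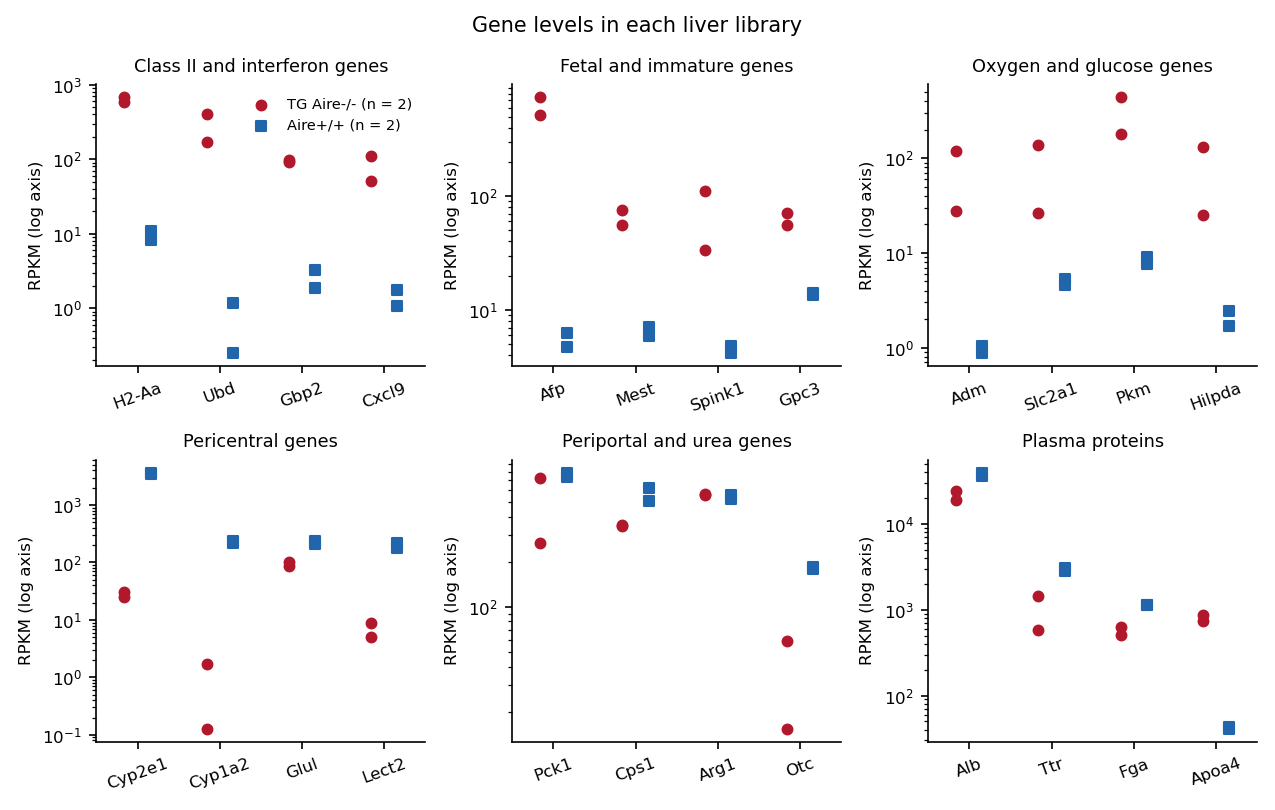
Points are single libraries, TG Aire-/- livers as red circles left of Aire+/+ livers as blue squares, with RPKM on a log axis in each panel. TG Aire-/- values lie above the controls for H2-Aa, Afp, Adm and Apoa4 and below them for Cyp2e1 and Otc, while for Arg1 the groups lie close at 560.2 and 564 and 557 and 529 RPKM.

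Genes for presenting antigen on class II molecules rose as a group. All 9 of the 9 class II genes tested were higher, with a median log2 difference of 4.58 beside 0.53 for all genes, and 8 were higher after median-of-ratios scaling. H2-Aa, the α chain of I-A, had 677 and 585 RPKM in the TG Aire-/- livers, against 8.31 and 10.9 RPKM in the Aire+/+ livers, a difference of 5.90 ± 0.55 (SE), adjusted p = 0.00184. Ciita, the transactivator that switches on class II genes, had 3.15 and 3.89 RPKM in TG Aire-/- liver and 0.0679 and 0.163 RPKM in Aire+/+ liver. Ctss, the protease that trims the invariant chain, had 256 and 342 RPKM in TG Aire-/- livers, with 22.9 and 21.8 RPKM in Aire+/+ livers. Class II genes were thus raised together with their transactivator, peptide loader H2-DMa (88.0 and 45.9 RPKM in TG Aire-/- livers, 1.41 and 2.03 RPKM in Aire+/+ livers) and protease. Leaving out any 1 of the 4 livers left 8 of the 9 past the threshold. On the class I side, 8 of 12 genes for loading and peptide supply rose (5 after median-of-ratios scaling, and 4 to 8 with 1 of the 4 livers left out). Tap1, a subunit of the peptide transporter, had 70.5 and 65.5 RPKM in the TG Aire-/- livers, against 6.17 and 7.79 RPKM in the Aire+/+ livers. Nlrc5, the class I transactivator, had 8.01 and 7.13 RPKM in TG Aire-/- liver and 1.4 and 1.94 RPKM in Aire+/+ liver. B2m, the light chain of class I, was not past the threshold at 2668 and 2611 RPKM in TG Aire-/- livers, with 1310.3 and 1268 RPKM in Aire+/+ livers, a difference of 1.03 ± 0.50 (SE), adjusted p = 0.136.

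All interferon-γ induced genes tested rose, and the number that rose on the type I interferon list depended on the scaling. All 13 of 13 interferon-γ induced GTPases and enzymes tested were higher, with a median of 2.80, and 10 were higher after median-of-ratios scaling. Gbp2, a guanylate-binding protein that attacks the vacuoles of intracellular pathogens, had 98.1 and 92.4 RPKM in the TG Aire-/- livers, against 1.88 and 3.28 RPKM in the Aire+/+ livers, a difference of 4.78 ± 0.29 (SE), adjusted p = 0.00142. Socs1, the feedback inhibitor of this pathway, had 23 and 5.84 RPKM in TG Aire-/- liver and 0.277 and 0.441 RPKM in Aire+/+ liver. Every one of the 13 was lower in TG Aire-/- liver 2 than in TG Aire-/- liver 1, and the groups did not overlap for any of them, as for 63.0% of all genes tested in that direction. Of 16 type I interferon induced genes, 12 were higher as deposited and 2 after median-of-ratios scaling, with a median of 1.68. Ifit2, an RNA-binding antiviral protein, was 1 of those 2, at 18.1 and 19.7 RPKM in TG Aire-/- livers, with 1.13 and 1.11 RPKM in Aire+/+ livers. With 1 of the 4 livers left out, 10 to 11 of the interferon-γ list and 1 to 5 of the type I list passed.

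Promoter letters of some of these genes are shown because members of both lists moved together. The sequences are RefSeq promoters on GRCm38.p6, the 120 bases before the start of the gene, on the strand of the gene. Capitals mark CCAAT, the core of the Y box of class II promoters, read on either strand (ATTGG on the other), in the H2 genes, and the interferon-stimulated response element, searched as TTTC, any 2 bases and TTTC, in the Gbp genes. H2-Aa lies at chr17:34287824-34287943 on the minus strand, and the windows of H2-Eb1 (chr17:34305747-34305866), H2-DMb1 (chr17:34153071-34153190), Gbp2 (chr3:142620543-142620662) and Gbp3 (chr3:142559924-142560043) lie on the plus strand.
H2-Aa: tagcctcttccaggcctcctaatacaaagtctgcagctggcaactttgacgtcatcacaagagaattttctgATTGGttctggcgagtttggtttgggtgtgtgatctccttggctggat
H2-Eb1: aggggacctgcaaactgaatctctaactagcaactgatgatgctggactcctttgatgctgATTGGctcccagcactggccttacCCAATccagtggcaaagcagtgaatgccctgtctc
H2-DMb1: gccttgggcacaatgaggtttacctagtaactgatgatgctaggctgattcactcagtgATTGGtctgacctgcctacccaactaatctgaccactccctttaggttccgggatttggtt
Gbp2: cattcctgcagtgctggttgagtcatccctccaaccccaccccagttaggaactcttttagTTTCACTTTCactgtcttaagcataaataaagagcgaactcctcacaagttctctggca
Gbp3: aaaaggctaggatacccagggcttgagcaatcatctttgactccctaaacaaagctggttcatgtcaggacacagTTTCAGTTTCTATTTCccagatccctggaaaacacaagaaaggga
The capitals begin at position -48 from the start in H2-Aa and at -59 in Gbp2, and Gbp3 holds 2 overlapping matches. Over windows of 250 bases before to 50 bases after the start, CCAAT was found in 6 of the 7 class II promoters in the table, against 37.4% of all 32851 promoters. The response element, searched on both strands, was found in 9 of the 10 promoters of the interferon-γ list and in 7 of the 12 of the type I list, against 3.44% of all promoters. Among genes tested the response element was in 5.24% of those higher, 4.94% of those lower and 3.37% of those not past the threshold. For CCAAT these shares were 41.0%, 49.0% and 43.0%. Such matches are a description and not evidence of binding.

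Most pericentral hepatocyte genes fell, and few periportal genes passed the threshold. Of 13 pericentral genes, 11 were lower and none higher, with a median of -1.57. Of 13 periportal genes, 1 was lower and 1 higher, with a median of -0.68, and the difference between the 2 lists was not tested. Glul, the glutamine synthetase of the cells next to the central vein, had 85.7 and 104 RPKM in the TG Aire-/- livers, against 237 and 208 RPKM in the Aire+/+ livers, a difference of -1.23 ± 0.33 (SE), adjusted p = 0.0262. Oat, ornithine aminotransferase of the same cells, had 28.2 and 44.0 RPKM in TG Aire-/- liver and 136 and 103 RPKM in Aire+/+ liver. Lect2, a secreted chemotactic protein, had 8.71 and 4.98 RPKM in TG Aire-/- livers, with 221 and 180.3 RPKM in Aire+/+ livers. The 2 groups were apart for each of these genes, and widest for Lect2. Rnf43, a feedback target of Wnt signalling, had 0.714 and 1.14 RPKM in the TG Aire-/- livers, against 3.76 and 2.61 RPKM in the Aire+/+ livers. Axin2, another such target, had 0.235 and 0.647 RPKM in TG Aire-/- liver and 1.51 and 1.33 RPKM in Aire+/+ liver. Both were low in all 4 livers. Znrf3, a further such target, was not past the threshold, and all 13 pericentral estimates lay below 0. On the periportal side Arg1, arginase of the urea cycle, had 560.2 and 564 RPKM in TG Aire-/- livers, with 557 and 529 RPKM in Aire+/+ livers, and was not past the threshold. Pck1, which starts gluconeogenesis, had 729.7 and 268 RPKM in the TG Aire-/- livers, against 741 and 788 RPKM in the Aire+/+ livers, with only TG Aire-/- liver 2 well below the controls, and was not past the threshold. Gls2, liver glutaminase, was the 1 periportal gene that fell, with 42.6 and 13.3 RPKM in TG Aire-/- liver and 71.2 and 83.9 RPKM in Aire+/+ liver, and Ctsc, a lysosomal protease also of leukocytes, was the 1 that rose, with 20.1 and 23.9 RPKM in TG Aire-/- livers, with 3.59 and 5.14 RPKM in Aire+/+ livers. The median of the periportal list was 0.05 in TG Aire-/- liver 1 and -1.43 in TG Aire-/- liver 2, and 3 of its genes were lower without TG Aire-/- liver 1. The pericentral medians were -1.45 and -1.41, and 5 to 7 of those genes passed with 1 of the 4 livers left out.

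Many enzymes that clear drugs and toxins fell. Among 19 cytochrome P450 genes of drug metabolism, 12 were lower and none higher, with a median of -1.85. Cyp2c29 had 19.2 and 4.45 RPKM in the TG Aire-/- livers, against 511 and 526 RPKM in the Aire+/+ livers, a difference of -5.63 ± 0.66 (SE), adjusted p = 0.00217. Cyp3a11, the main mouse enzyme of its subfamily, had 279 and 152 RPKM in TG Aire-/- liver and 1037 and 1492 RPKM in Aire+/+ liver. Both lay below the controls in each TG Aire-/- liver. Cyp4a14, a fatty acid hydroxylase driven by PPARα, was not past the threshold, with 189 and 226 RPKM in TG Aire-/- livers, with 228 and 192 RPKM in Aire+/+ livers. Of 20 conjugating enzymes, 13 fell and 2 rose, with a median of -1.55. Ugt1a1, which conjugates bilirubin, had 50.1 and 56.0 RPKM in the TG Aire-/- livers, against 316 and 328 RPKM in the Aire+/+ livers, a difference of -2.58 ± 0.35 (SE), adjusted p = 0.00293. Gsta3, a glutathione transferase, had 40.0 and 41.3 RPKM in TG Aire-/- liver and 539 and 595 RPKM in Aire+/+ liver. The 2 TG Aire-/- livers were close to each other for both genes. The 2 that rose were glutathione transferases as well. Gsta1 had 9.03 and 30.3 RPKM in TG Aire-/- livers, with 1.47 and 0.447 RPKM in Aire+/+ livers. Gstp1 had 846 and 652 RPKM in the TG Aire-/- livers, against 229 and 219.8 RPKM in the Aire+/+ livers and was not past the threshold after median-of-ratios scaling. With 1 of the 4 livers left out, 6 to 12 of the P450 genes and 7 to 12 of the conjugating enzymes were lower.

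Most genes of bile acid synthesis and of transport were lower. Of 13 genes of bile acid synthesis and conjugation, 9 were lower and none higher (median -1.52). Cyp7a1, the rate-limiting enzyme of the classical pathway, had 5.98 and 0.787 RPKM in TG Aire-/- liver and 24.1 and 23.2 RPKM in Aire+/+ liver, a difference of -2.80 ± 0.60 (SE), adjusted p = 0.0113. Cyp2c70, which makes muricholic acids in mice, had 78.8 and 16.3 RPKM in TG Aire-/- livers, with 404 and 529 RPKM in Aire+/+ livers. For both, TG Aire-/- liver 2 was the lower of the pair. Cyp8b1, which directs synthesis to cholic acid, was not past the threshold, with 73.6 and 20.6 RPKM in the TG Aire-/- livers, against 47.7 and 47.3 RPKM in the Aire+/+ livers. TG Aire-/- liver 1 was above and TG Aire-/- liver 2 below both controls. Of 15 transporters, 9 were lower and 1 higher (median -1.51). Slc10a1, which takes up conjugated bile acids from sinusoidal blood, had 66.9 and 50.1 RPKM in TG Aire-/- liver and 259 and 275 RPKM in Aire+/+ liver, a difference of -2.19 ± 0.37 (SE), adjusted p = 0.00543. Abcb11, the bile salt export pump, had 17.8 and 6.50 RPKM in TG Aire-/- livers, with 79.6 and 74.5 RPKM in Aire+/+ livers. Slc22a7, an organic anion carrier, had 2.07 and 0.194 RPKM in the TG Aire-/- livers, against 46.4 and 39.0 RPKM in the Aire+/+ livers. All 3 lay below both controls in each TG Aire-/- liver. Abcc4, which returns bile acids to blood, was the transporter that rose, with 1.58 and 2.16 RPKM in TG Aire-/- liver and 0.156 and 0.325 RPKM in Aire+/+ liver. Abcb4, the phospholipid floppase that protects bile ducts, had 44.3 and 35.7 RPKM in TG Aire-/- livers, with 33.3 and 33.7 RPKM in Aire+/+ livers and was not past the threshold. Of 14 xenobiotic and nuclear receptors, 5 were lower as deposited and 9 after median-of-ratios scaling. Nr1i3, the receptor CAR, had 9.02 and 8.38 RPKM in the TG Aire-/- livers, against 66.6 and 57.3 RPKM in the Aire+/+ livers. Nr1h4, the bile acid receptor FXR, had 22.7 and 18.3 RPKM in TG Aire-/- liver and 35.8 and 36.2 RPKM in Aire+/+ liver. Its target Nr0b2 had 3.30 and 2.55 RPKM in TG Aire-/- livers, with 17.5 and 10.8 RPKM in Aire+/+ livers. The fall of Nr1h4 was the smallest of these 3. Leaving out 1 of the 4 livers left 3 to 9 synthesis genes, 6 to 9 transporters and 1 to 3 receptors lower.

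Genes of amino acid breakdown fell at several steps, and those of the urea cycle in part. Of 20 genes, 11 were lower and none higher (median -1.38). Otc, which makes citrulline, had 59.2 and 15.4 RPKM in the TG Aire-/- livers, against 179 and 186 RPKM in the Aire+/+ livers, a difference of -2.55 ± 0.55 (SE), adjusted p = 0.012. Cps1, the entry enzyme of the cycle, was not past the threshold with 349 and 353 RPKM in TG Aire-/- liver and 513 and 618 RPKM in Aire+/+ liver. Hpd, of tyrosine breakdown, had 155 and 68.9 RPKM in TG Aire-/- livers, with 881 and 714 RPKM in Aire+/+ livers, a difference of -2.93 ± 0.50 (SE), adjusted p = 0.00548. For Otc and Hpd, TG Aire-/- liver 2 was the lower of the pair, and the 2 were alike for Cps1. Gnmt, which consumes S-adenosylmethionine, had 104 and 84.3 RPKM in the TG Aire-/- livers, against 1005 and 656 RPKM in the Aire+/+ livers. Mat1a, which makes it, had 474 and 309.8 RPKM in TG Aire-/- liver and 1206 and 1226 RPKM in Aire+/+ liver. The groups were apart for both. Across the list the median was -0.81 in TG Aire-/- liver 1 and -2.07 in TG Aire-/- liver 2, and 11, 3, 3 and 2 genes were lower without TG Aire-/- liver 1, TG Aire-/- liver 2, Aire+/+ liver 1 and Aire+/+ liver 2.

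Of 20 coagulation and fibrinolysis factors, 12 were lower and 1 higher (median -1.51). F7, the factor with the shortest plasma life, had 11.6 and 4.70 RPKM in TG Aire-/- livers, with 63.1 and 62.7 RPKM in Aire+/+ livers, a difference of -2.92 ± 0.40 (SE), adjusted p = 0.00293. Serpind1, heparin cofactor II, had 79.6 and 34.6 RPKM in the TG Aire-/- livers, against 259.9 and 270.2 RPKM in the Aire+/+ livers. Again TG Aire-/- liver 2 was the lower of the pair. F2, prothrombin, was not past the threshold with 479 and 416 RPKM in TG Aire-/- liver and 914 and 803 RPKM in Aire+/+ liver. Tfpi, the inhibitor of the tissue factor pathway that endothelium makes, was the 1 that rose, with 6.40 and 12.5 RPKM in TG Aire-/- livers, with 1.35 and 1.26 RPKM in Aire+/+ livers. Of 22 complement components, 9 fell and 3 rose (median -0.93). C8g, a chain of the membrane attack complex, had 17.3 and 4.95 RPKM in the TG Aire-/- livers, against 175 and 143 RPKM in the Aire+/+ livers, a difference of -3.93 ± 0.51 (SE), adjusted p = 0.00258. Mbl2, a mannose-binding lectin, had 125 and 21.2 RPKM in TG Aire-/- liver and 317 and 243 RPKM in Aire+/+ liver. The 3 that rose were C1qa, C1qb and C1qc, the chains of C1q, which macrophages make. C1qb had 286 and 313 RPKM in TG Aire-/- livers, with 46.2 and 36.7 RPKM in Aire+/+ livers. The groups were far apart for it, with close values within each group.

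Of 22 plasma proteins and apolipoproteins, 5 were lower and 1, Apoa4, higher (median -0.96). Ttr, the carrier of thyroxine, had 1457 and 584 RPKM in the TG Aire-/- livers, against 3035 and 2815 RPKM in the Aire+/+ livers. Alb was not past the threshold, with a difference of -0.81 ± 0.73 (SE), adjusted p = 0.399. Of 20 acute phase proteins and IL-6 targets, 4 fell and 2 rose (median -1.0), with 8 lower and 2 higher after median-of-ratios scaling. Itih4, an inhibitor heavy chain, had 185 and 244 RPKM in TG Aire-/- liver and 832 and 861 RPKM in Aire+/+ liver. Fgg, the γ chain of fibrinogen, had 718 and 755 RPKM in TG Aire-/- livers, with 1855 and 1825 RPKM in Aire+/+ livers. Both falls were alike in the 2 TG Aire-/- livers. Saa3, the serum amyloid A of macrophages and other cells outside hepatocytes, had 22.1 and 15.3 RPKM in the TG Aire-/- livers, against 3.41 and 1.91 RPKM in the Aire+/+ livers. Socs3, the feedback inhibitor of IL-6 signalling, had 6.71 and 15.5 RPKM in TG Aire-/- liver and 1.80 and 1.17 RPKM in Aire+/+ liver. The 2 genes that rose were low in the controls. The hepatocyte amyloid Saa1 had 3.26 and 4.65 RPKM in TG Aire-/- livers, with 31.7 and 23.8 RPKM in Aire+/+ livers, a difference of -2.54 ± 1.41 (SE), adjusted p = 0.184 that was not past the threshold. With 1 of the 4 livers left out, 2 to 12 coagulation, 1 to 6 complement, 1 to 10 plasma protein and 0 to 4 acute phase genes were lower, in each list most often without TG Aire-/- liver 1.

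**Figure D3:**
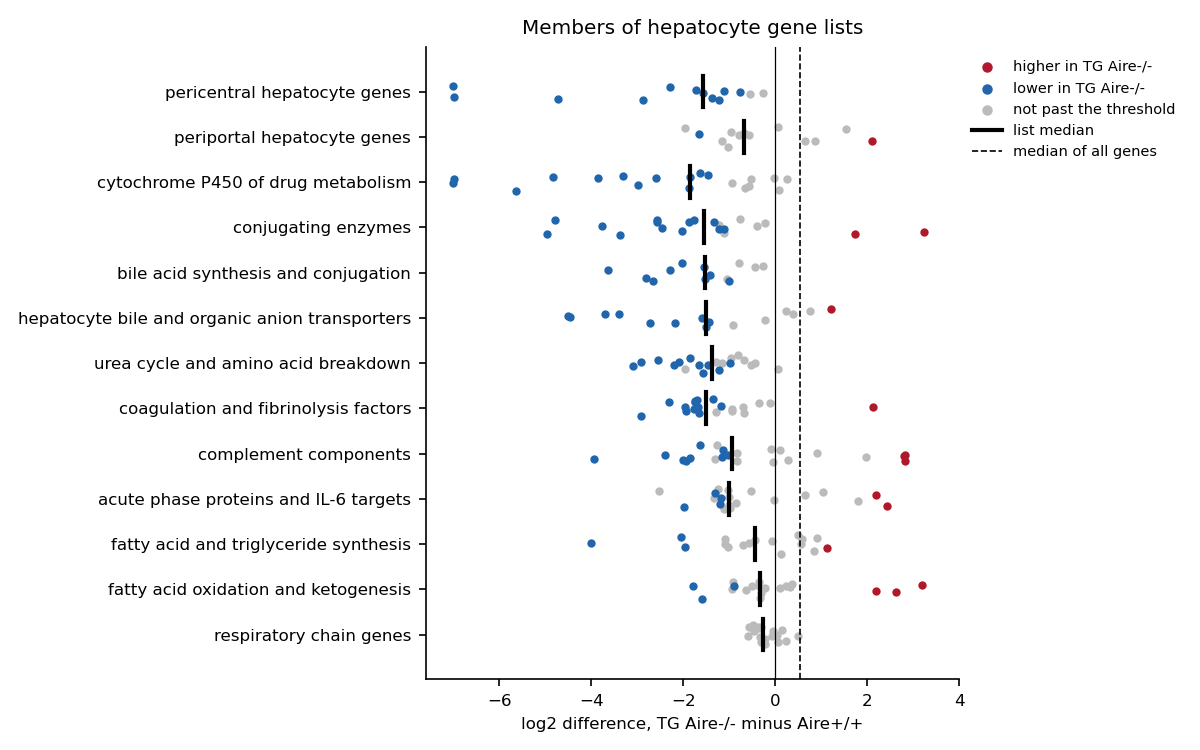
Each point is 1 gene of a hepatocyte list, with its log2 difference, TG Aire-/- minus Aire+/+, on the x axis; blue points were lower, red points higher and grey points not past the threshold, and the black bar is the list median. The pericentral (-1.57), P450 (-1.85) and conjugating enzyme (-1.55) medians lie furthest left among the rows shown, and the respiratory chain (-0.27) lies nearest to 0.

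Genes of fuel metabolism in hepatocytes changed in part. By limma none of 18 respiratory chain genes passed the threshold (median -0.27), 0 had an unadjusted p under 0.05, and 1 was lower after median-of-ratios scaling. Fatty acid oxidation and ketogenesis held 3 higher and 3 lower of 19 genes (3 and 7 after median-of-ratios scaling). The share higher was below the 31.8% of all genes tested as deposited and near the 15.1% after that scaling. The share lower was above the 5.50% of all genes as deposited and above the 12.3% after that scaling. Pdk4, which blocks entry of pyruvate into mitochondria, had 24.3 and 101 RPKM in the TG Aire-/- livers, against 4.73 and 4.42 RPKM in the Aire+/+ livers, a difference of 3.19 ± 0.67 (SE), adjusted p = 0.0107. Acot2, a mitochondrial thioesterase, had 23.9 and 37.1 RPKM in TG Aire-/- liver and 4.31 and 3.72 RPKM in Aire+/+ liver. Both rose further in TG Aire-/- liver 2. Cpt1a, the gate of fatty acid entry, was not past the threshold at 70.0 and 63.6 RPKM in TG Aire-/- livers, with 81.7 and 88.7 RPKM in Aire+/+ livers. Of 17 genes of fat synthesis 3 fell and 1 rose, with 8 lower and 0 higher after median-of-ratios scaling. Thrsp, a lipogenic regulator, had 0.845 and 0.440 RPKM in the TG Aire-/- livers, against 14.8 and 42.8 RPKM in the Aire+/+ livers, a difference of -4.01 ± 0.54 (SE), adjusted p = 0.00283, and its controls differed from each other. Mlxipl, the glucose-sensing factor ChREBP, had 5.99 and 2.83 RPKM in TG Aire-/- liver and 20.2 and 20.4 RPKM in Aire+/+ liver. Of 12 gluconeogenic and glycogen genes 4 fell (7 after median-of-ratios scaling). Of 18 genes of cholesterol synthesis and uptake 2 were lower (6 after median-of-ratios scaling). Leaving out 1 of the 4 livers left 1 to 3 oxidation genes higher and 0 to 3 lower, and 2 to 4 fat synthesis, 0 to 4 gluconeogenic and 0 to 1 cholesterol genes lower, in each of these most often without TG Aire-/- liver 1.

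Markers of the fetal and immature liver rose and several of the mature liver fell. Of 12 oncofetal genes 8 were higher and none lower as deposited (median 1.92). After median-of-ratios scaling 6 were higher and 2 lower. Afp, the fetal counterpart of albumin, had 523 and 742 RPKM in TG Aire-/- livers, with 6.27 and 4.69 RPKM in Aire+/+ livers, a difference of 6.60 ± 0.29 (SE), adjusted p = 0.00041. Mest, an imprinted gene of fetal growth, had 56.2 and 76.1 RPKM in the TG Aire-/- livers, against 7.14 and 5.92 RPKM in the Aire+/+ livers. Gpc3, a proteoglycan of fetal liver and liver tumours, had 55.4 and 70.9 RPKM in TG Aire-/- liver and 14.2 and 13.5 RPKM in Aire+/+ liver. All 3 were apart between groups and higher in TG Aire-/- liver 2. H19, an imprinted RNA that shares a repressor with Afp in mice, was not past the threshold. H19 had 408 and 153 RPKM in TG Aire-/- livers, with 487 and 644 RPKM in Aire+/+ livers. It lay below the controls in both TG Aire-/- livers. Of 10 genes that switch on as the liver matures 6 were lower (median -2.62). Ces3a, a carboxylesterase, had 2.24 and 1.20 RPKM in the TG Aire-/- livers, against 51.8 and 64.6 RPKM in the Aire+/+ livers, a difference of -4.46 ± 0.64 (SE), adjusted p = 0.00334. Igfals, which holds IGF1 in plasma, had 3.34 and 3.38 RPKM in TG Aire-/- liver and 39.2 and 44.9 RPKM in Aire+/+ liver. On the growth hormone axis 6 genes fell and 2 rose of 14. Ghr, the receptor, had 16.4 and 18.8 RPKM in TG Aire-/- livers, with 60.6 and 78.1 RPKM in Aire+/+ livers. Igf1, the hormone it drives, had 27.8 and 17.9 RPKM in the TG Aire-/- livers, against 65.1 and 79.7 RPKM in the Aire+/+ livers. Receptor and product were thus both low. Prlr, the prolactin receptor, had 2.34 and 1.63 RPKM in TG Aire-/- liver and 15.6 and 18.2 RPKM in Aire+/+ liver. Of 14 hepatocyte transcription factors 2 were lower and 1 higher (4 and 0 after median-of-ratios scaling), and none passed in either direction without TG Aire-/- liver 2 or either Aire+/+ liver. Cebpa, a factor of the mature hepatocyte, had 41.5 and 29.3 RPKM in TG Aire-/- livers, with 125 and 112 RPKM in Aire+/+ livers. Hnf4a, the master factor of the lineage, was not past the threshold at 57.7 and 44.6 RPKM in the TG Aire-/- livers, against 93.1 and 102 RPKM in the Aire+/+ livers, a difference of -0.93 ± 0.34 (SE), adjusted p = 0.0646. Leaving out 1 of the 4 livers left 6 to 7 oncofetal genes higher and 5 to 6 maturation and 3 to 5 growth axis genes lower.

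Some iron and haem genes were higher and some lower. Of 14 genes 6 were higher and 2 lower as deposited, beside 31.8% and 5.50% of all genes tested. After median-of-ratios scaling 3 were higher and 2 lower, near the 15.1% and 12.3% of all genes. Hmox1, which degrades haem, had 125 and 307 RPKM in TG Aire-/- liver and 13.9 and 11.9 RPKM in Aire+/+ liver, a difference of 3.83 ± 0.49 (SE), adjusted p = 0.00251. Bmp6, an endothelial signal that raises hepcidin, had 2.52 and 4.89 RPKM in TG Aire-/- livers, with 0.354 and 0.679 RPKM in Aire+/+ livers. Id1, a target of it, had 24 and 20.4 RPKM in the TG Aire-/- livers, against 5.51 and 2.56 RPKM in the Aire+/+ livers. The groups were apart for all 3. Tmprss6, which restrains hepcidin, had 48.1 and 43.0 RPKM in TG Aire-/- liver and 116 and 113 RPKM in Aire+/+ liver. Hamp, hepcidin itself, was low in all 4 livers, with 1.39 and 3.02 RPKM in TG Aire-/- livers, with 0 and 0.122 RPKM in Aire+/+ livers, a difference of 1.55 ± 0.55 (SE), adjusted p = 0.0598 that was not past the threshold. The list median of 0.82 became -0.01 after median-of-ratios scaling, and 3 to 4 genes were higher with 1 of the 4 livers left out.

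Genes that respond to low oxygen, and the glycolytic enzymes of cells other than hepatocytes, were higher in TG Aire-/- liver. The first list, targets of hypoxia-inducible factor, was chosen after the values had been seen. Of its 24 genes 22 were higher (median 2.61), and 13 after median-of-ratios scaling. Adm, a vasodilator peptide, had 27.7 and 119 RPKM in the TG Aire-/- livers, against 0.870 and 1.03 RPKM in the Aire+/+ livers, a difference of 4.91 ± 0.59 (SE), adjusted p = 0.00217. Slc2a1, the glucose transporter GLUT1, had 26.4 and 136 RPKM in TG Aire-/- liver and 4.55 and 5.35 RPKM in Aire+/+ liver. Slc16a3, which exports lactate, had 17.4 and 56.9 RPKM in TG Aire-/- livers, with 0.277 and 0.375 RPKM in Aire+/+ livers. All 3 were apart between groups. Angpt2, which loosens vessels, had 11.8 and 59.1 RPKM in the TG Aire-/- livers, against 0.123 and 0.170 RPKM in the Aire+/+ livers. TG Aire-/- liver 2 was the higher of the pair for all 24 genes, and the medians were 1.67 in TG Aire-/- liver 1 and 3.59 in TG Aire-/- liver 2. Vegfa, the vessel growth factor, had 26.6 and 74.6 RPKM in TG Aire-/- liver and 24.5 and 25.2 RPKM in Aire+/+ liver and was not past the threshold (adjusted p = 0.18), with TG Aire-/- liver 1 close to the controls. Of 13 glycolytic genes 12 were higher (median 2.92, 9 after median-of-ratios scaling). Pkm, the pyruvate kinase of non-hepatocytes, had 180.1 and 439 RPKM in TG Aire-/- livers, with 9.06 and 7.70 RPKM in Aire+/+ livers, a difference of 4.92 ± 0.50 (SE), adjusted p = 0.00196. Pfkp, a phosphofructokinase, had 25.1 and 54.4 RPKM in the TG Aire-/- livers, against 1.01 and 0.764 RPKM in the Aire+/+ livers. Ldha was not past the threshold, with 820.4 and 845 RPKM in TG Aire-/- liver and 572 and 446 RPKM in Aire+/+ liver. Without TG Aire-/- liver 2, 9 targets of hypoxia-inducible factor and 9 glycolytic genes were higher, and the lowest counts on leaving out any of the other 3 livers were 12 and 9. Whether tissue handling differed between the livers is not given in the sources used here and was not tested.

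**Figure D4:**
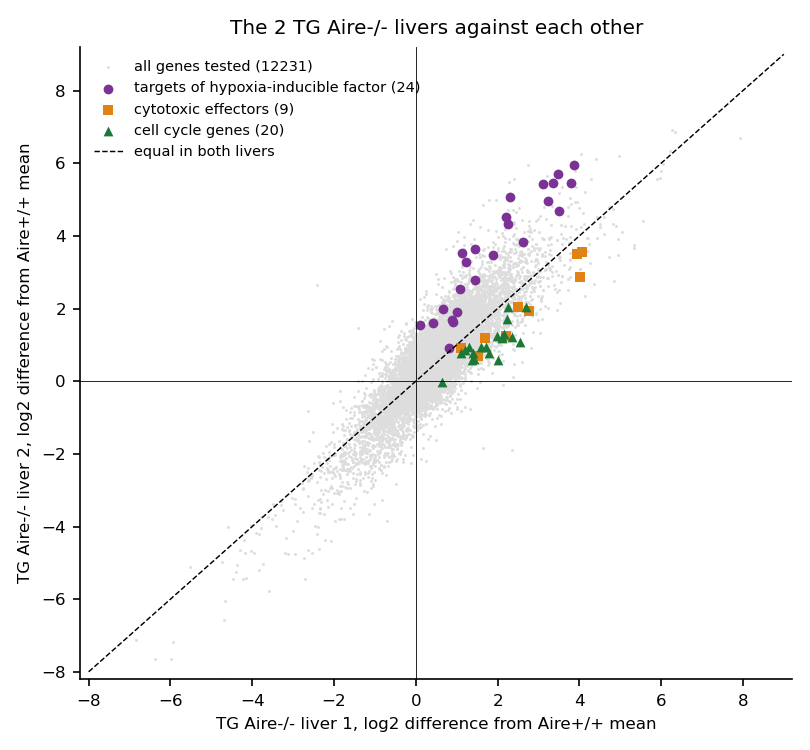
Each point is 1 gene, with its log2 difference from the mean of the 2 Aire+/+ livers in TG Aire-/- liver 1 on the x axis and in TG Aire-/- liver 2 on the y axis. All 24 targets of hypoxia-inducible factor (purple), a list chosen after the values had been seen, lie above the dashed line of equality. All 20 cell cycle genes (green) and all 9 cytotoxic effectors (orange) lie below it.

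T cell genes rose, with control levels near 0. Members under 1 RPKM in both controls could enter the test only through the other livers, which favoured a rise among those tested. All 11 of 11 genes of the T cell receptor complex and its coreceptors were higher (median 2.29), with 10 after median-of-ratios scaling. Cd3e, a signalling chain, had 6.96 and 4.60 RPKM in TG Aire-/- livers, with 0.323 and 0.170 RPKM in Aire+/+ livers, a difference of 2.42 ± 0.29 (SE), adjusted p = 0.00217. Cd4 had 2.73 and 3.73 RPKM in the TG Aire-/- livers, against 0.285 and 0.286 RPKM in the Aire+/+ livers, so CD8 transcripts exceeded CD4 in TG Aire-/- liver 1 and Cd8a and Cd4 lay together in TG Aire-/- liver 2. All 9 cytotoxic effectors tested, of 13 listed, rose. Gzmb, granzyme B, had 45.6 and 31.4 RPKM in TG Aire-/- liver and 1.5 and 2.05 RPKM in Aire+/+ liver. Of 8 inhibitory receptors and ligands 6 rose. Cd274, the ligand PD-L1 that many cell types make, had 12.1 and 22.6 RPKM in TG Aire-/- livers, with 0.391 and 0.715 RPKM in Aire+/+ livers, a difference of 3.51 ± 0.34 (SE), adjusted p = 0.00184. Tigit had 5.64 and 4.78 RPKM in the TG Aire-/- livers, against 0.0633 and 0 RPKM in the Aire+/+ livers. Cd274 and Tigit were each above the controls in both TG Aire-/- livers. Tox, a factor of exhausted T cells that liver also transcribes, was not past the threshold with 2.00 and 4.61 RPKM in TG Aire-/- liver and 2.02 and 3.27 RPKM in Aire+/+ liver. Of 14 T cell chemokines and receptors 13 rose and 1 fell. Cxcl16, the ligand that holds CXCR6 cells in sinusoids, had 28.5 and 37.5 RPKM in TG Aire-/- livers, with 3.23 and 2.58 RPKM in Aire+/+ livers. Ccl21a was the 1 that fell, with 0.402 and 0.0560 RPKM in the TG Aire-/- livers, against 1.37 and 1.58 RPKM in the Aire+/+ livers. With 1 of the 4 livers left out, 6 to 8 receptor genes, 4 to 7 effectors, 2 to 5 inhibitory receptor or ligand genes and 6 to 10 chemokine genes were higher.

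Genes of B cells and plasma cells did not pass the threshold. By limma the count was 0 of 2 B cell genes and 0 of 5 plasma cell genes tested, with 0 and 0 at an unadjusted p under 0.05. Cd79a, the B cell receptor chain, had 4.68 and 0.506 RPKM in TG Aire-/- liver and 1.33 and 2.01 RPKM in Aire+/+ liver. Jchain, which joins IgA and IgM, had 0.353 and 0.878 RPKM in TG Aire-/- livers, with 0.508 and 0.307 RPKM in Aire+/+ livers. The groups overlapped for both, and the other 6 listed B cell genes were below the filter.

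Myeloid genes rose in resident and recruited classes. Of 12 Kupffer cell identity genes 9 were higher (median 1.82, 7 after median-of-ratios scaling). Marco, a scavenger receptor, had 269.9 and 175 RPKM in the TG Aire-/- livers, against 9.12 and 7.07 RPKM in the Aire+/+ livers, a difference of 4.60 ± 0.53 (SE), adjusted p = 0.00217. Clec4f, the C-type lectin that marks mouse Kupffer cells, was not past the threshold with 73.6 and 31.3 RPKM in TG Aire-/- liver and 37.8 and 38.2 RPKM in Aire+/+ liver, and neither was Nr1h3, which sustains their identity, with 39.8 and 19.8 RPKM in TG Aire-/- livers, with 43.0 and 38.0 RPKM in Aire+/+ livers. Of 14 genes of recruited monocytes and scar macrophages 13 rose (median 3.26, 13 after median-of-ratios scaling). Lgals3, galectin-3, had 67.9 and 144 RPKM in the TG Aire-/- livers, against 3.32 and 2.56 RPKM in the Aire+/+ livers, a difference of 4.67 ± 0.61 (SE), adjusted p = 0.00277. Gpnmb, of lipid-laden macrophages, had 8.39 and 43.5 RPKM in TG Aire-/- liver and 0.0730 and 0.0131 RPKM in Aire+/+ liver. Mmp12, a macrophage elastase, had 5.78 and 61.8 RPKM in TG Aire-/- livers, with 0.0122 and 0.0134 RPKM in Aire+/+ livers. TG Aire-/- liver 2 was the higher for 11 of the 14, and by the most for Mmp12 among the 3 just given. Of 14 neutrophil granule genes 13 rose (median 2.65). Elane, of early granules, had 22.6 and 22.8 RPKM in the TG Aire-/- livers, against 1.27 and 1.80 RPKM in the Aire+/+ livers. S100a8, of mature cells, had 152 and 244 RPKM in TG Aire-/- liver and 12.5 and 17.9 RPKM in Aire+/+ liver. Genes of early and of mature neutrophils were both raised. Leaving out TG Aire-/- liver 2 left 5 Kupffer, 6 monocyte and 4 neutrophil genes higher, fewer than leaving out any other of the 4 livers or as few.

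Most platelet and red cell genes tested were higher. All 7 platelet and megakaryocyte genes rose (median 3.02, 7 after median-of-ratios scaling), each higher in TG Aire-/- liver 2 than in TG Aire-/- liver 1. Pf4, platelet factor 4, had 60.5 and 88.7 RPKM in TG Aire-/- livers, with 3.86 and 1.66 RPKM in Aire+/+ livers, a difference of 4.37 ± 0.36 (SE), adjusted p = 0.00148. Itga2b, the platelet integrin, had 11.4 and 21.2 RPKM in the TG Aire-/- livers, against 1.19 and 0.908 RPKM in the Aire+/+ livers. Of 12 erythroid genes 10 were higher (median 2.79), and 11 of the 12 were lower in TG Aire-/- liver 2 than in TG Aire-/- liver 1. Gata1, the factor of red cell and platelet precursors, had 4.28 and 4.06 RPKM in the TG Aire-/- livers and was listed at 0 in both Aire+/+ livers. The globin genes Hba-a1 and Hba-a2 have near-identical sequences, and Hba-a1 had 9622 and 5038 RPKM in TG Aire-/- liver and 605 and 583 RPKM in Aire+/+ liver. The summed level of the erythroid list was 30682 and 17564 RPKM in the TG Aire-/- livers, against 2366 and 2069 RPKM in the Aire+/+ livers. RPKM are relative to the library, and the part of these transcripts in the falls of other genes was not tested. When any 1 of the 4 livers was left out, 3 to 7 platelet and 4 to 9 erythroid genes passed.

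Genes of scar-forming cells rose. Of 16 myofibroblast and matrix genes 14 were higher (median 2.12, 10 after median-of-ratios scaling). Acta2, smooth muscle actin, had 50.9 and 33.5 RPKM in TG Aire-/- livers, with 1.59 and 2.17 RPKM in Aire+/+ livers, a difference of 3.88 ± 0.31 (SE), adjusted p = 0.00148. Col1a1, the main fibrillar collagen, had 98.6 and 124 RPKM in the TG Aire-/- livers, against 6.39 and 13.4 RPKM in the Aire+/+ livers. Loxl2, which cross-links collagen, had 47.2 and 158 RPKM in TG Aire-/- liver and 3.74 and 4.53 RPKM in Aire+/+ liver. The groups were apart for all 3. Col3a1, another fibrillar collagen, was not past the threshold with 71.2 and 121 RPKM in TG Aire-/- livers, with 29.5 and 50.1 RPKM in Aire+/+ livers. Of 10 genes of quiescent stellate cells 4 rose, near the 31.8% of all genes tested, and 0 to 5 did with 1 of the 4 livers left out, fewest without Aire+/+ liver 1. Lrat, which stores retinol, was not past the threshold with 3.54 and 3.17 RPKM in the TG Aire-/- livers, against 3.42 and 3.78 RPKM in the Aire+/+ livers. Of 13 TGF-β receptors and targets 6 rose as deposited and 6 after median-of-ratios scaling, beside 31.8% and 15.1% of all genes tested. All 13 estimates lay above 0 as deposited. Without TG Aire-/- liver 1, 12 of the TGF-β list were higher, and without TG Aire-/- liver 2, 3 of them and 6 of the matrix list were.

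Endothelial genes of the sinusoidal and the capillary class rose. Of 11 sinusoidal genes 9 were higher (median 2.17), and of 12 capillary and arterial genes 11 were (median 2.42). The other 2 sinusoidal genes, Clec4g and Rspo3, were not past the threshold, and 1 of the 11 sinusoidal estimates lay below 0. Lyve1, the hyaluronan receptor, had 35.9 and 103 RPKM in TG Aire-/- liver and 3.0 and 2.38 RPKM in Aire+/+ liver, a difference of 4.07 ± 0.49 (SE), adjusted p = 0.00217. Esm1, a product of sprouting vessels, had 21 and 71.4 RPKM in TG Aire-/- livers, with 0 and 0.0705 RPKM in Aire+/+ livers, a difference of 5.27 ± 0.52 (SE), adjusted p = 0.00188. Pecam1, of all endothelium, had 29.2 and 83.1 RPKM in the TG Aire-/- livers, against 3.03 and 2.87 RPKM in the Aire+/+ livers. For Lyve1, Esm1 and Pecam1, TG Aire-/- liver 2 was the higher of the pair. Of 11 cholangiocyte genes 4 rose as deposited, a share near the 31.8% of all genes tested, and 1 after median-of-ratios scaling. Krt19, a bile duct keratin, had 4.13 and 20.3 RPKM in TG Aire-/- liver and 1.21 and 1.45 RPKM in Aire+/+ liver, with TG Aire-/- liver 1 much closer to the controls than TG Aire-/- liver 2, and it was not past the threshold after median-of-ratios scaling. Msln, of the liver's mesothelial capsule, had 8.29 and 9.51 RPKM in TG Aire-/- livers, with 0.596 and 0.998 RPKM in Aire+/+ livers. With 1 of the 4 livers left out, 7 to 9 sinusoidal, 6 to 10 capillary and 1 to 4 cholangiocyte genes were higher.

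Genes of injury, cell death, damage and division were higher as deposited. All 14 genes of the cytoskeletal injury list tested were higher (median 3.28, 13 after median-of-ratios scaling). Tmsb10, an actin-binding peptide, had 223 and 233 RPKM in the TG Aire-/- livers, against 7.61 and 7.38 RPKM in the Aire+/+ livers, a difference of 4.75 ± 0.55 (SE), adjusted p = 0.00214. Vim, the intermediate filament vimentin, had 213 and 453 RPKM in TG Aire-/- liver and 12.1 and 19.2 RPKM in Aire+/+ liver. Both were apart from the controls by a wide margin. Of 16 death receptor and cell death genes 12 rose (5 after median-of-ratios scaling). Mlkl, which ruptures the membrane in necroptosis, had 16.7 and 15.4 RPKM in TG Aire-/- livers, with 1.44 and 1.81 RPKM in Aire+/+ livers. Ripk3, which activates it, had 6.43 and 8.28 RPKM in the TG Aire-/- livers, against 0.424 and 0.426 RPKM in the Aire+/+ livers. The pair was near the limit of detection or low in the controls. Tnfrsf12a, the TWEAK receptor, had 90.5 and 67.3 RPKM in TG Aire-/- liver and 8.11 and 3.91 RPKM in Aire+/+ liver, a difference of 3.56 ± 0.62 (SE), adjusted p = 0.00584. Fas, the death receptor that CD8+ T cells engage, was not past the threshold with 9.34 and 7.83 RPKM in TG Aire-/- livers, with 10.8 and 10.1 RPKM in Aire+/+ livers. Of 14 p53 targets 12 rose (7 after median-of-ratios scaling). Phlda3, an inhibitor of AKT, had 9.03 and 11.6 RPKM in the TG Aire-/- livers, against 0.978 and 1.21 RPKM in the Aire+/+ livers, apart from the controls in both TG Aire-/- livers. Cdkn1a, the cell cycle inhibitor p21, was not past the threshold with 45.9 and 108 RPKM in TG Aire-/- liver and 40.7 and 30.8 RPKM in Aire+/+ liver. Of 20 cell cycle genes 15 rose as deposited and 3 after median-of-ratios scaling, the latter a share near the 15.1% of all genes. Mki67 had 14 and 8.60 RPKM in TG Aire-/- livers, with 0.924 and 1.78 RPKM in Aire+/+ livers. Without TG Aire-/- liver 2, 8 injury, 0 cell death, 2 p53 and 9 cell cycle genes were higher, and without Aire+/+ liver 1 the counts were 12, 5, 5 and 2.

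Immediate early genes, which respond within minutes to a stimulus or to handling, also differed between the 2 TG Aire-/- livers. Of 17 heat shock and immediate early genes 9 rose (4 after median-of-ratios scaling). Fos had 6.18 and 65.3 RPKM in the TG Aire-/- livers, against 0.929 and 1.24 RPKM in the Aire+/+ livers, a difference of 3.39 ± 0.87 (SE), adjusted p = 0.0217. Ier3, a survival factor, had 14.1 and 80.1 RPKM in TG Aire-/- liver and 0.676 and 0.587 RPKM in Aire+/+ liver. TG Aire-/- liver 2 exceeded TG Aire-/- liver 1 several-fold for both, and both livers exceeded the controls. Of 15 genes of endoplasmic reticulum stress 3 rose and 1 fell as deposited, and 3 were higher and 5 lower after median-of-ratios scaling. The share that rose as deposited was below the 31.8% of all genes tested. The share that fell was near the 5.50% of all genes as deposited and above the 12.3% after median-of-ratios scaling. Atf3, a stress-induced repressor, had 11 and 32.6 RPKM in TG Aire-/- livers, with 0.750 and 0.30 RPKM in Aire+/+ livers. Herpud1, of protein degradation at that membrane, had 86.3 and 72.7 RPKM in the TG Aire-/- livers, against 340.2 and 406 RPKM in the Aire+/+ livers. These 2 went in opposite directions in both TG Aire-/- livers. Clock genes, also listed after the values had been seen, gave 1 higher and 1 lower of 14 as deposited and 0 and 2 after that scaling. Without TG Aire-/- liver 2, 3 of the immediate early list and 2 of the stress list were higher.

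Some ribosomal protein and housekeeping genes were higher as deposited and after quantile normalization, and none after median-of-ratios scaling. Of 16 ribosomal protein genes 10 were higher as deposited (median 1.0) and 0 after median-of-ratios scaling. Of 12 housekeeping genes 6 were higher as deposited (median 1.03), and 0 were higher and 1 lower after that scaling. The counts higher in the 2 lists were 0 and 2 after TMM scaling and 8 and 6 after quantile normalization. Gapdh, of glycolysis, had 761 and 799 RPKM in TG Aire-/- liver and 204 and 169 RPKM in Aire+/+ liver. Actb, β-actin, had 928 and 855 RPKM in TG Aire-/- livers, with 261 and 226 RPKM in Aire+/+ livers. Neither was past the threshold after median-of-ratios scaling. Leaving out 1 of the 4 livers left 0 to 4 ribosomal protein and 0 to 6 housekeeping genes higher, and 0 of both without either Aire+/+ liver. Of 3 pancreatic acinar genes tested 1 was lower and none higher. Of 14 autoantigens of the 2 diseases 4 were higher (1 after median-of-ratios scaling, and 1 to 2 with 1 of the 4 livers left out) and 1 lower, no larger a share higher than the 31.8% of all genes tested. Sp100, a nuclear body antigen of biliary cholangitis, had 11.2 and 10.1 RPKM in the TG Aire-/- livers, against 2.12 and 1.99 RPKM in the Aire+/+ livers, a difference of 1.93 ± 0.32 (SE), adjusted p = 0.00522. Dlat, the mitochondrial E2 antigen, had 7.37 and 9.74 RPKM in TG Aire-/- liver and 9.27 and 7.87 RPKM in Aire+/+ liver and was not past the threshold. Asgr1, the asialoglycoprotein receptor of hepatocytes, had 145 and 82.8 RPKM in TG Aire-/- livers, with 416 and 351 RPKM in Aire+/+ livers.

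The 2 TG Aire-/- livers were less alike than the 2 controls. Over the 12231 genes Pearson's r of log2(RPKM + 1) was 0.933 between the TG Aire-/- livers and 0.989 between the Aire+/+ livers, a description across genes. In TG Aire-/- liver 2, 841 genes were at least 1 log2 unit higher than in TG Aire-/- liver 1 and 434 were lower, against 18 and 42 between the Aire+/+ livers. In each group liver 1 was male and liver 2 female, so sex and single liver cannot be told apart. TG Aire-/- liver 2 held more of the oxygen, platelet and monocyte lists. It held less of the urea, plasma protein, T cell receptor and cytotoxic effector lists. The inhibitory receptor list went the other way from these T cell lists, with medians of 1.43 in TG Aire-/- liver 1 and 1.76 in TG Aire-/- liver 2. The oxygen list, targets of hypoxia-inducible factor, was chosen after the values had been seen. For T cell receptor genes the medians were 2.64 in TG Aire-/- liver 1 and 1.88 in TG Aire-/- liver 2, and for urea genes -0.81 and -2.07. With 2 livers a group, this difference has no test.

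**Figure D5:**
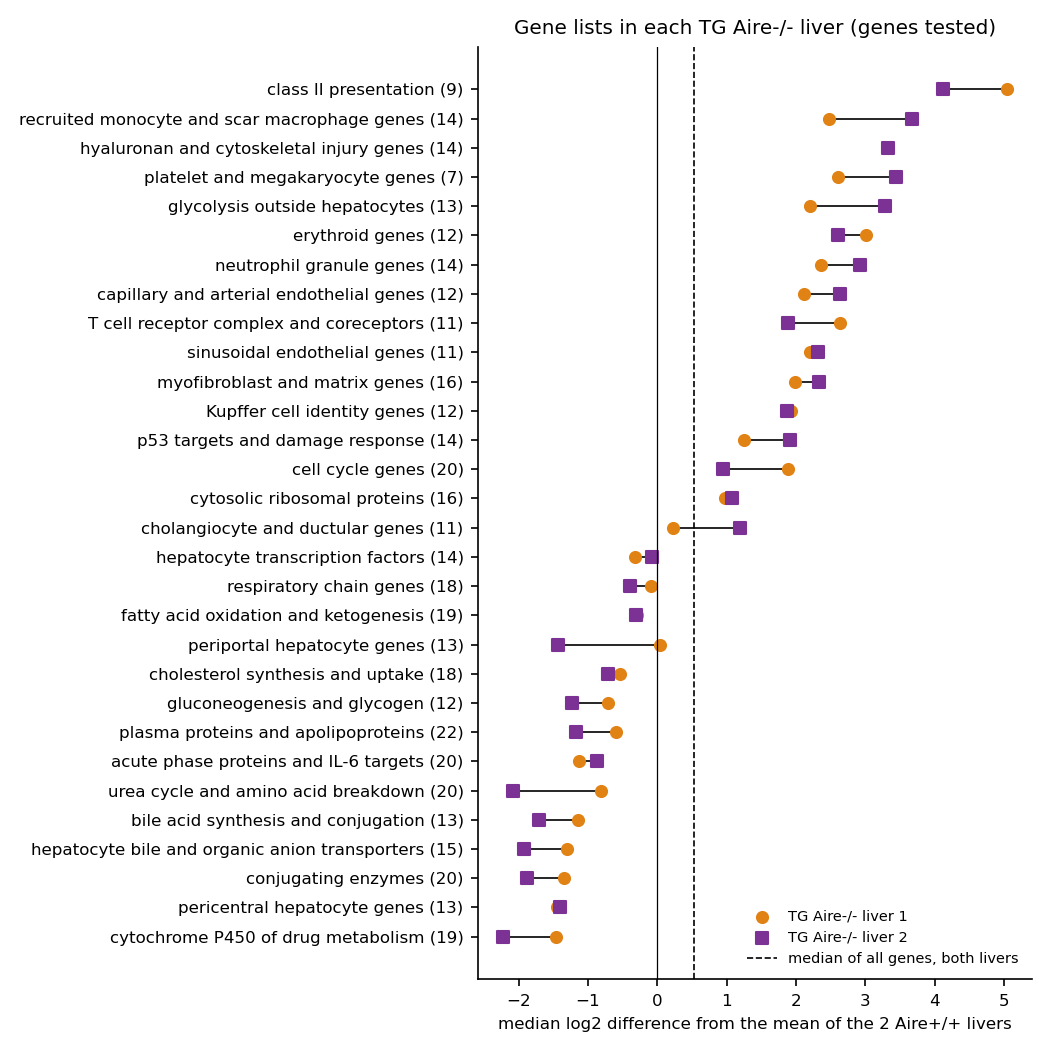
Median log2 difference of gene lists from the mean of the 2 Aire+/+ livers, for TG Aire-/- liver 1 (orange circles) and TG Aire-/- liver 2 (purple squares), with the number of genes tested in brackets. Among the lists shown, class II genes lie furthest right at 5.04 and 4.12, P450 genes furthest left at -1.46 and -2.22, and the periportal list has the widest gap, 0.05 and -1.43.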

How the data were processed

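Liver tissue RNA was sequenced in bulk, and the authors deposited RPKM values of 24786 genes in 1 table for the 6 livers of the second batch. The submitters' processing notes list STAR 2.5.2b and mm10. Which annotation, counting tool and strand setting were used is not given in the sources used here, and per the labels' protocols libraries followed Illumina or BGI procedures. RPKM are not counts, so no count test was used. Depth, inferred from the steps between low values of 6084 genes with a single transcript, was 20300000 to 22700000 reads per library, but only 41.1% to 47.0% of low values came out whole within 0.1 read (20.0% by chance), too few to recover reads. On a gene of 2000 bases 3 reads then equal 0.0661 to 0.0739 RPKM, which covers counting error only.

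Genes with at least 1 RPKM in at least 2 of the 6 livers entered a two-sided test on log2(RPKM + 1) by limma 3.58.1 (R 4.3.3, functions lmFit and eBayes with trend), with all 3 groups in 1 fit and no covariates. Benjamini-Hochberg adjustment ran over all genes tested, and every adjusted p and SE given comes from this fit. The pseudocount understates changes of low genes. Genes under 1 RPKM in both Aire+/+ livers met the filter only through the other livers, which favoured calls of higher among them. The labels do not say that replicates were separate animals; the pair of each compared group differed in sex by Xist and Ddx3y, and p-values measure only the spread between these samples. Gene lists were counted and given no test. The members, lists and tests were chosen with earlier results of these data known, and 2 of the 67 lists were added after the values were seen. Genes named in the text were the 6 checked first, the 15 largest rises and 15 largest falls that did not overlap and reached 10 RPKM, and for each list its first 4 genes, its 4 largest changes and up to 2 abundant genes not past the threshold; Abcc4, Axin2, Cat, Ciita, Ctss, Cxcl16, Cyp3a11, Gpnmb, Gsta1, Gstp1, H2-DMa, Mat1a, Mbl2, Nlrc5, Nr1h4, Rnf43, Slc10a1 and Socs1 fall outside this rule and were chosen after their values were seen. Not all genes that the rule names are described, and some are not reported here. Values are identical in all libraries within 37 sets of genes (85 genes), which were not told apart. Promoters came from RefSeq on GRCm38.p6, the assembly that mm10 names. The test was checked on simulated data. Alternatives were other pseudocounts, filters, scalings, model terms and each liver left out.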

Additional observations from a re-analysis of the deposited data

How the results depend on the processing

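The counts of higher and lower genes, 3892 and 673 as deposited, changed with the scaling, the minimum change tested and single libraries. They were 1813 and 1474 after median-of-ratios scaling, 2007 and 1218 after TMM scaling and 1700 and 1449 after quantile normalization, where the median of all genes was -0.02, 0.09 and -0.05 in place of 0.53. A filter of 5 RPKM left 7400 genes tested and 2238 higher, and a test against a minimum log2 change of 1 left 443 and 89. With 1 of the 6 livers left out the counts ran from 1038 to 4241 higher and from 199 to 861 lower, fewest higher without TG Aire-/- liver 2 and fewest lower without Aire+/+ liver 2. In such fits the remaining liver of a pair is assumed to vary like the other groups.

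Replicate numbers were taken from the labels, which do not say that they mark a shared litter or day. The differences between replicates 1 and 2 correlated at 0.292 between the TG Aire-/- and Aire+/+ livers, and with 2 livers a group the numbers were not taken as pairs. With the replicate number as a block, 3700 genes were higher and 641 lower. With sex as a covariate, 3660 were higher and 653 lower.

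Of the 129 genes past the threshold that the text names, 125 stayed past it after median-of-ratios scaling (Actb, Gapdh, Gstp1 and Krt19 did not), 85 of 118 tested without TG Aire-/- liver 2, 101 of 128 without Aire+/+ liver 1 and 73 against a minimum log2 change of 1, and none changed direction in any alternative. Some genes that were not past the threshold as deposited changed sign, and the cause was not tested. After median-of-ratios scaling the log2 difference was -0.41 for Abcb4, -0.62 for Arg1, -0.21 for Cd79a, -0.32 for Clec4f, -0.041 for Jchain and -0.30 for Tox. After TMM scaling it was -0.28 for Abcb4, -0.48 for Arg1, -0.14 for Cd79a, -0.19 for Clec4f and -0.21 for Tox. After quantile normalization it was -0.013 for Abcb4, -0.40 for Cd79a, 0.10 for Cyp4a14, -0.25 for Jchain and -0.53 for Tox, and with a pseudocount of 0.1 it was -0.030 for Cd79a. With each of the 6 livers left out in turn it ran from -0.81 to 1.10 for Cd79a, from -0.27 to 0.94 for Clec4f, from -0.15 to 0.11 for Cyp4a14, from -1.17 to 0.62 for Cyp8b1, from -0.19 to 0.17 for Dlat, from -0.054 to 0.42 for Jchain and from -0.26 to 0.64 for Tox. With 2 livers a group, single livers set which genes pass, and genes near 0.0739 RPKM, about 3 reads on 2000 bases, are little more than detected.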

Other observations

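Some further lists held few tested genes. Of 5 dendritic cell genes 4 were higher as deposited and 1 after median-of-ratios scaling. Fscn1, the actin-bundling protein of mature dendritic cells that other activated cells also make, had 19.2 and 36.1 RPKM in the TG Aire-/- livers, against 2.00 and 1.68 RPKM in the Aire+/+ livers, a log2 difference of 3.27 ± 0.36 (SE), adjusted p = 0.00207. Of 6 haematopoietic progenitor genes 4 were higher and 1 lower. Kit, the stem cell factor receptor, had 3.46 and 12.7 RPKM in TG Aire-/- liver and 0.596 and 0.341 RPKM in Aire+/+ liver, and TG Aire-/- liver 2 held much more of it than TG Aire-/- liver 1. Mcpt8, the 1 mast cell or basophil gene tested, had 2.43 and 1.90 RPKM in TG Aire-/- livers, with 0 and 0.470 RPKM in Aire+/+ livers and was not past the threshold (adjusted p = 0.0515 by limma). Acta1, the 1 of 8 skeletal muscle genes that passed the filter, had 1.71 and 8.03 RPKM in the TG Aire-/- livers, against 0 and 0.0630 RPKM in the Aire+/+ livers and rose. Without TG Aire-/- liver 2, 1 of the dendritic cell and 0 of the progenitor genes were higher, and Acta1 and Kit no longer met the filter.

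Of 14 targets of Nrf2 4 were higher and 1 lower as deposited, close to the 31.8% and 5.50% of all genes tested, and 2 were higher and 5 lower after median-of-ratios scaling, where the list median changed sign, to -0.50, against 0.17 as deposited. G6pdx, the entry enzyme of the pentose phosphate pathway, had 13 and 15.2 RPKM in TG Aire-/- liver and 1.70 and 1.59 RPKM in Aire+/+ liver, a difference of 2.51 ± 0.31 (SE), adjusted p = 0.00229. Cat, catalase of the peroxisome, fell, with 259 and 195 RPKM in TG Aire-/- livers, with 516 and 588 RPKM in Aire+/+ livers, but was not past the threshold without TG Aire-/- liver 2. Genes that differ between male and female liver gave 0 higher and 2 lower of 12, and 0 to 2 lower with 1 of the 4 livers left out. After median-of-ratios scaling the counts were again 0 higher and 2 lower. Over all genes tested, 31.8% were higher and 5.50% lower as deposited, and 15.1% and 12.3% after that scaling. Elovl3, a fatty acid elongase of male liver, had 0.0233 and 0.0517 RPKM in the TG Aire-/- livers, against 2.20 and 1.94 RPKM in the Aire+/+ livers. Cyp2b13, of female liver, had 0.921 and 0.603 RPKM in TG Aire-/- liver and 22.5 and 28.8 RPKM in Aire+/+ liver. Both were lower in each TG Aire-/- liver than in either control. Their levels were similar in the male and the female control. By Xist and Ddx3y liver 1 of each group was male and liver 2 female. Cyp2b13 was not past the threshold with either TG Aire-/- liver left out.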
